A study of Mus musculus with 14 samples.

Results

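Fabp7, Glul, Gja1, Slc1a3, Apoe and Ptgds are 6 genes used as markers of satellite glial cells. They were taken by symbol from the 24062 genes of a bulk RNA-seq count table of mouse dorsal root ganglia (DRGs) and plexiform neurofibromas (PNs), the nerve tumors that form after loss of Nf1. All 6 passed the filter on low counts in every comparison. Control libraries came from DRGs with attached nerve of 3 Nf1fl/fl mice (DRG3, DRG4 and DRG5), whose label names no Cre. PN libraries came from Dhh-Cre;Nf1fl/fl mice, 5 with slow-growing tumors (1079, 1198A, 1202, 1203 and 1206) and 6 with fast-growing tumors (1053, 1071, 1179, 1191, 1214 and 1216). Dhh-Cre acts in the Schwann cell lineage, among whose cells the authors count satellite glia. By the authors' account no other cells of the tumor lose Nf1. The labels give a mixed background of C57BL/6, I-129 and FVBN and no drug for all mice, while the methods call the background mainly C57BL/6. Tumor volume was followed by MRI between 7 and 9 months of age. A slow-growing PN changed by less than 5 mm3 over those 2 months and a fast-growing PN grew by more than 35 mm3. Tissue was taken at 9 months according to the methods, while a figure legend gives 7 months. Each library was 1 mouse, so a p-value below measures the spread between mice.

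Satellite glial cells wrap the cell bodies of sensory neurons in the ganglion. They take up glutamate through the transporter encoded by Slc1a3 and convert it to glutamine with glutamine synthetase, the product of Glul. They are coupled to each other by gap junctions, which hold connexin 43, the product of Gja1. Fabp7 encodes the brain-type fatty acid binding protein and is a much-used marker of these cells and of glial precursors. Apoe encodes the lipid carrier apolipoprotein E, which macrophages also make in large amounts. Ptgds encodes the lipocalin-type enzyme that makes prostaglandin D2, known also from the meninges. None of the 6 is restricted to satellite glia in textbook knowledge, and fat, muscle, endothelium and fibroblasts use several of them. In the cluster marker lists that were made from dissociated cells of the same mouse model, 2 of the 6 (Fabp7 and Apoe) are in the satellite cell list, and Apoe is also in the lists of a macrophage and a dendritic cell cluster. Glul is in an endothelial list, Slc1a3 is in 2 lists of fibroblasts and pericytes, and Gja1 and Ptgds are in 0 lists. In bulk tissue, fewer cells of a type and less RNA per cell cannot be told apart.

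The libraries held between 9596773 and 17594164 counts on genes. Levels are counts per 1000000 counts of the TMM-scaled library (CPM), and 3 counts amounted to 0.166 to 0.317 CPM. Markers of other cells differed between libraries, and they are given here as the summed level of each marker list. The 15 pan-neuronal genes ran from 1904 to 6741 CPM in controls, from 3060 to 16325 in the slow-growing and from 52.4 to 8894 in the fast-growing tumors. Library 1191 alone gave the value of 52.4, and the lowest of the other fast-growing PNs was 2743 CPM. The 13 fat genes ran from 4208 to 6049 CPM in controls, from 41.7 to 3383 in the slow-growing and from 44.4 to 309 in the fast-growing tumors. The 15 skeletal muscle genes ran from 13070 to 46614 CPM in controls, from 112 to 14915 in the slow-growing and from 468 to 9277 in the fast-growing tumors. No gene of these 3 lists was at 0 in every library of a group. The 8 genes of nonmyelinating Schwann cells ran from 605 to 1681 CPM in controls and from 2415 to 4971 CPM in PNs.

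The 6 genes did not move as a block. Gja1 was lower in every PN than in any control, with about the same mean in slow-growing and in fast-growing tumors, though the test of slow-growing PNs against controls missed the threshold. Glul and Slc1a3 were lower in fast-growing PNs than in controls, and neither was called between fast-growing and slow-growing PNs. Fabp7 and Ptgds varied more between mice of one group than between groups. Apoe had its lowest levels in slow-growing PNs and its highest in fast-growing PNs.

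With all 11 PNs set against controls, 1 of the 6 genes was called lower (Gja1) and 0 were called higher, by the quasi-likelihood test of edgeR, with p adjusted after Benjamini and Hochberg over all genes tested. Of 16283 genes tested, 26.3% were called in this comparison and 13.4% were called lower. In slow-growing PNs against controls, 0 of the 6 were called, where 11.3% of 15714 genes were. With all 8 libraries of that comparison, Gja1 and Apoe, 2 of the 6, had an unadjusted p under 0.05, DESeq2 called 1 (Gja1) and limma voom called 0. Over all genes DESeq2 called 3529 and limma voom 1844 there. In simulated counts for this comparison, 29.8% of the DESeq2 calls were false, against 5.43% for edgeR. Without control DRG5 the edgeR calls over all genes fell from 4283 to 2061 in PNs and from 1769 to 599 in slow-growing PNs. In fast-growing PNs against controls, 3 of the 6 were called, all lower (Glul, Gja1 and Slc1a3), where 31.4% of 16037 genes were called and 16.7% were called lower. Between fast-growing and slow-growing PNs, 0 of the 6 were called, where 1.27% of 15465 genes were. That background of 196 genes ranged from 2 to 1194 when 1 library was left out and was highest without 1198A. Glul and Apoe, 2 of the 6, had an unadjusted p under 0.05, DESeq2 called both and limma voom called 0. Over all genes DESeq2 called 1570 and limma voom 34 between the PN groups. In simulated counts for these groups, 19.1% of the DESeq2 calls were false, against 3.03% for edgeR. The share of all genes with an unadjusted p under 0.05 is not given here for any comparison. These comparisons share libraries and are not independent of each other.

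The median log2 fold change of the 6 genes was -0.54 in PNs against controls, -0.53 in slow-growing and -0.68 in fast-growing PNs against controls, and -0.23 between fast-growing and slow-growing PNs. The medians over all genes tested were 0.10, 0.04, 0.02 and -0.03 in the same order. The plot of levels by library shows that these medians cover unlike patterns.

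**Figure D1:**
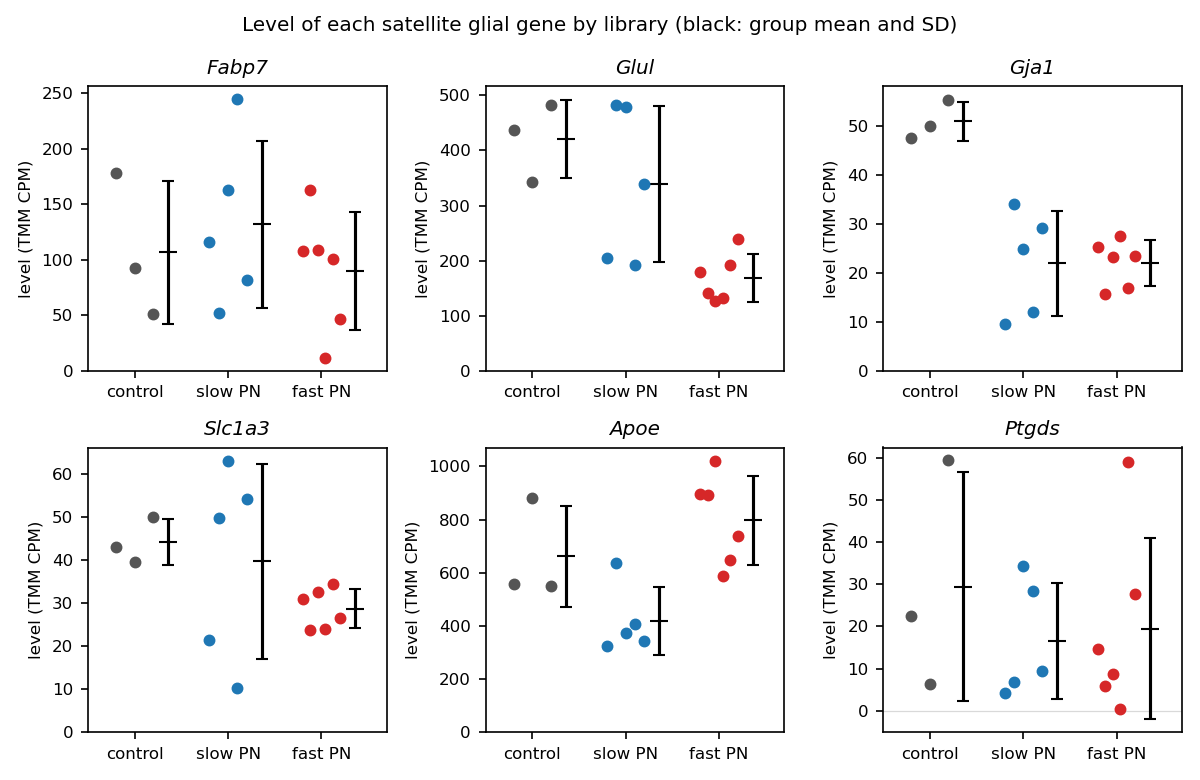
Level of each of the 6 genes in TMM CPM (y axis) in 3 control, 5 slow-growing PN and 6 fast-growing PN libraries (colored points, 1 per mouse), with the group mean and SD in black. Gja1 is below every control in all 11 PNs, Glul and Slc1a3 are below every control in the 6 fast-growing PNs, and Fabp7 and Ptgds overlap in all groups.

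Gja1 had 47.5, 49.9 and 55.3 CPM in DRG3, DRG4 and DRG5. The slow-growing PNs had 9.58 CPM in 1079, 34.0 in 1198A, 24.8 in 1202, 12.0 in 1203 and 29.2 in 1206. The fast-growing PNs ran from 15.6 to 27.5 CPM with a median of 23.4. Every PN was below every control, and both PN groups overlapped throughout. The mean was 50.9 ± 3.98 CPM (SD, n = 3) in controls, 21.9 ± 10.7 (n = 5) in slow-growing and 22 ± 4.7 (n = 6) in fast-growing PNs. In PNs against controls the log2 fold change was -1.21 (SE 0.28, adjusted p = 0.00632), which is 2.32-fold lower. Against controls it was -1.26 (SE 0.20, adjusted p = 0.00133) in fast-growing PNs and -1.26 (SE 0.40, adjusted p = 0.0778) in slow-growing PNs, where the test missed the threshold. The groups did not overlap for 1 of the 6 genes (Gja1) in PNs against controls, where 17.7% of all tested genes did not, and for Gja1 alone in slow-growing PNs against controls, where the share was 23.4%. The pericyte and smooth muscle sum was 1224 to 1438 CPM in controls, 351 to 502 in the fast-growing tumors and 280 to 444 in the slow-growing ones except 1206, at 1364. The endothelial sum was 456 to 604 CPM in controls, 134 to 643 in slow-growing and 177 to 468 in fast-growing PNs. The fibroblast sum was 2093 to 4000 CPM in controls, 1325 to 5781 in slow-growing and 5634 to 10607 in fast-growing PNs, where Gja1 was lower. The macrophage sum was 346 to 1471 CPM in controls, 147 to 1319 in slow-growing and 666 to 2066 in fast-growing PNs. Within groups Gja1 had r of 0.63 with the macrophage, 0.59 with the fibroblast, 0.57 with the endothelial and 0.47 with the pericyte sum. Without the 2 libraries that deviated most in each sum these became 0.36, 0.37, 0.33 and 0.13. The part of these cells in its level was not tested. Between fast-growing and slow-growing PNs the log2 fold change of Gja1 was 0.00 (SE 0.32, adjusted p = 0.994), so that a difference of the size seen against controls lies outside 3 SE.

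Glul had 437, 343 and 483 CPM in DRG3, DRG4 and DRG5. It had 204 CPM in 1079, 482 in 1198A, 479 in 1202, 192 in 1203 and 339 in 1206, so 3 slow-growing PNs were at or near the control level and 2 were low. The fast-growing PNs ran from 126 to 240 CPM with a median of 161, all of them below the lowest control. Against controls the log2 fold change in fast-growing PNs was -1.37 (SE 0.22, adjusted p = 0.00152), or 2.59-fold lower. In slow-growing PNs it was -0.35 (SE 0.35, adjusted p = 0.515), and with all 11 PNs it was -0.77 (SE 0.38, adjusted p = 0.149). Fast-growing PNs were 2.01-fold below slow-growing PNs (log2 fold change -1.01, SE 0.28, adjusted p = 0.0789), short of the threshold. Without slow-growing 1203 this difference passed (adjusted p = 0.0395). In the annotation, Glul shares 209 exonic bases with Teddm2 on the opposite strand and with the microRNA gene Mir8114. Mir8114 had 0 counts in every library, and Teddm2, listed under an older symbol, had 0 to 15 counts. Whether counting used strand is not given in the sources used here.

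Slc1a3, the glutamate transporter, had 42.9, 39.4 and 49.9 CPM in the controls. The slow-growing PNs had 21.4 CPM in 1079, 49.8 in 1198A, 62.9 in 1202, 10.3 in 1203 and 54.0 in 1206, a 6.10-fold span. The 3 high and 2 low slow-growing PNs were the same mice as for Glul. The fast-growing PNs lay between 23.7 and 34.3 CPM with a median of 28.8, below every control. Their log2 fold change against controls was -0.68 (SE 0.16, adjusted p = 0.0103), or 1.60-fold lower. This call was lost without control DRG5 (adjusted p = 0.0723) and in a fit of all 14 libraries (adjusted p = 0.272). With all 11 PNs against controls the log2 fold change was -0.39 (SE 0.38, adjusted p = 0.476). In slow-growing PNs the log2 fold change was -0.19 (SE 0.52, adjusted p = 0.818). The groups did not overlap for 3 of the 6 genes in fast-growing PNs against controls (Glul, Gja1 and Slc1a3), where 32.4% of all tested genes did not overlap.

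Markers of some other tissues were also lower in fast-growing PNs, where Glul, Gja1 and Slc1a3 were called lower. Against controls, all 13 fat genes and 13 of the 15 skeletal muscle genes were called lower there, where 16.7% of all genes were. So were 7 of 10 pericyte and smooth muscle genes and 6 of 10 endothelial genes, and 1 pericyte gene (Cspg4) was called higher. Other lists went up, with 7 of 10 fibroblast genes higher and 1 lower, and 6 of 8 nonmyelinating Schwann genes higher and 0 lower. Of all genes, 31.4% were called in either direction. From mouse to mouse within groups the 3 genes ran against the muscle sum, with r of -0.38 for Glul, -0.68 for Gja1 and -0.41 for Slc1a3 (-0.18, -0.53 and -0.31 without the 2 libraries that deviated most in it), and with the fat sum, with r of 0.61, 0.68 and 0.85. In a fit with fat and muscle scores as covariates none of the 3 passed (adjusted p = 0.682 for Glul, 0.766 for Gja1 and 0.873 for Slc1a3), and that fit called 0 genes in all. The log2 fold changes in it were -2.17, -1.6 and -1, farther from 0 than without covariates. The fat sum was at most 3383 CPM in PNs and at least 4208 CPM in controls. Such fits against controls therefore cannot separate group from fat, and neither the lost calls nor the shifted fold changes can be read as an adjusted effect. With all 11 PNs, Gja1 had a log2 fold change of -1.45 in such a fit (adjusted p = 0.0715), where 511 genes passed. The other two turned direction in that fit, Glul from -0.77 to 0.11 (adjusted p = 0.901) and Slc1a3 from -0.39 to 0.24 (adjusted p = 0.772). In slow-growing PNs they were 0.34 and 1.17 with the covariates (adjusted p = 0.969 and 0.383), and 0 genes passed.

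Within the slow-growing group the fat and muscle sums can be read beside each mouse. The fat genes summed to 2072, 2054 and 3383 CPM in 1198A, 1202 and 1206, the 3 PNs with Glul at 339 CPM or more. They summed to 276 CPM in 1079 and 41.7 CPM in 1203, where Glul was 204 and 192 CPM, inside the range of the fast-growing PNs. Gja1 and Slc1a3 were also lower in 1079 and 1203 than in the other 3. The muscle genes summed to 112, 14132 and 196 CPM in 1198A, 1202 and 1206, and to 14915 and 5123 CPM in 1079 and 1203. The part of either tissue in these levels was not tested.

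**Figure D2:**
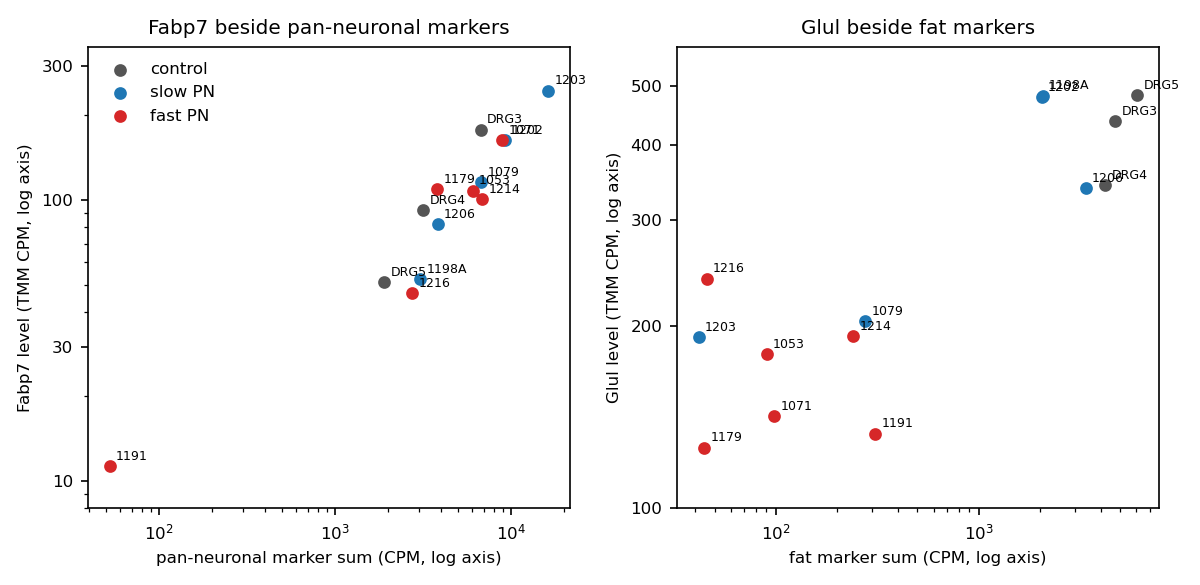
Left, Fabp7 (TMM CPM) against the summed CPM of 15 pan-neuronal genes, and right, Glul against the summed CPM of 13 fat genes, on log axes, with 1 point per library colored by group and named by mouse. Fabp7 lies along a rising line from 1191 (52.4 CPM of neuronal genes) to 1203 (16325 CPM), and the libraries with fat genes at 2054 CPM or more have Glul at 339 CPM or more.

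Fabp7 had 178, 92.3 and 51.1 CPM in DRG3, DRG4 and DRG5, so the controls alone spanned 3.48-fold. It had 116 CPM in 1079, 52.2 in 1198A, 163 in 1202, 245 in 1203 and 82.3 in 1206. The fast-growing PNs ran from 11.3 CPM in 1191 to 163 in 1071 with a median of 105. All 3 groups overlapped. The log2 fold change was 0.03 (SE 0.60, adjusted p = 0.979) in PNs against controls, 0.26 (SE 0.53) in slow-growing and -0.30 (SE 0.65) in fast-growing PNs against controls, and -0.55 (SE 0.56) between fast-growing and slow-growing PNs. No call was made, and the SE leaves room for a change of about the size seen for Gja1.

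The order of Fabp7 across mice was close to that of the pan-neuronal genes. Deviations from the group means, on a log2 scale, gave a Pearson's r of 0.94 and a Spearman's rho of 0.92 over 14 libraries, and r was 0.91 without the 2 libraries whose neuronal sum deviated most. Over the 11 PNs alone, levels gave an r of 0.95. Per 1000 CPM of neuronal genes, Fabp7 was 26.3, 29.1 and 26.8 CPM in DRG3, DRG4 and DRG5. The same ratio was 15 to 21.4 in slow-growing PNs, below every control. In fast-growing PNs it was 14.7 to 18.3 in 1053, 1071, 1214 and 1216, it reached 28.6 in 1179, and it was 215 in 1191, where the neuronal genes summed to only 52.4 CPM. These ratios were formed after the levels had been seen and carry no test.

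Ptgds was the most variable of the 6. The controls had 22.5, 6.38 and 59.4 CPM. The slow-growing PNs had 4.10 CPM in 1079, 6.84 in 1198A, 34.3 in 1202, 28.5 in 1203 and 9.45 in 1206. The fast-growing PNs ran from 0.454 CPM in 1191, which was 6 counts, to 59.0 CPM in 1214 with a median of 11.7. The SD was 92.4% of the mean in controls, 82.7% in slow-growing and 111% in fast-growing PNs. The log2 fold change was -0.70 (SE 0.89, adjusted p = 0.593) in PNs against controls, and without control DRG5 it became 0.33. A change of either sign is within reach of that error. Its r with the neuronal sum was 0.62 (rho 0.44), and it fell to 0.43 without the 2 libraries whose neuronal sum deviated most.

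Apoe had the highest level per length of the 6 in every group. Its CPM values were 557, 881 and 549 in DRG3, DRG4 and DRG5. It had 324 CPM in 1079, 636 in 1198A, 375 in 1202, 409 in 1203 and 344 in 1206, so 4 of the 5 slow-growing PNs were below every control. The fast-growing PNs ran from 589 to 1020 CPM with a median of 816. Fast-growing PNs were 1.91-fold above slow-growing PNs (log2 fold change 0.93, SE 0.21), with an adjusted p of 0.0544 that missed the threshold, and the groups overlapped through 1198A alone. Without slow-growing 1198A the log2 fold change was 1.14 and the adjusted p was 0.00764. Against controls the log2 fold change was -0.71 (SE 0.29, adjusted p = 0.136) in slow-growing and 0.21 (SE 0.23, adjusted p = 0.533) in fast-growing PNs, where it became 0.64 (adjusted p = 0.0452) once the trend with gene length and GC content was removed. The 12 macrophage genes summed to 346 to 1471 CPM in controls, 147 to 1319 in slow-growing and 666 to 2066 in fast-growing PNs, and 1198A was also the slow-growing PN with the highest macrophage sum (1319 CPM, against 405 or less in the others). Macrophage markers moved with Apoe over the 11 PNs (r = 0.77), less so as deviations from group means over 14 libraries (r = 0.47, rho 0.23). The r of 0.47 became 0.27 without the 2 libraries that deviated most in the macrophage sum. Over the 11 PNs Apoe also had r of 0.75 with the nonmyelinating Schwann sum, 0.66 with the fibroblast sum and -0.67 with the peripheral myelin sum. The part of these cells in the level of Apoe was not tested.

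**Figure D3:**
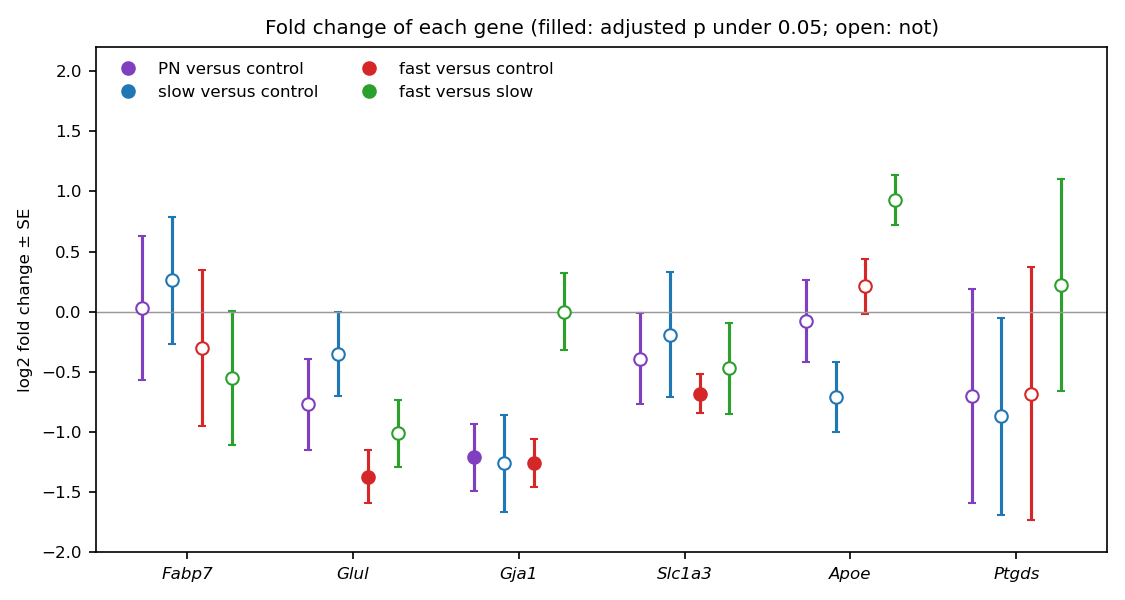
Log2 fold change with its SE (y axis) of each gene in 4 comparisons (colors), with filled points where the adjusted p was under 0.05. The filled points are Gja1 in PNs and in fast-growing PNs, and Glul and Slc1a3 in fast-growing PNs, all below 0.

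Per kilobase of the longest transcript, which allows genes to be ranked, the order in controls was Apoe (470 ± 135 CPM per kb, SD, n = 3), Glul (151 ± 25.5), Fabp7 (122 ± 73.3), Ptgds (22.2 ± 20.5), Gja1 (13.1 ± 1.02) and Slc1a3 (9.94 ± 1.21). Glul and Fabp7 overlapped between mice, and Ptgds (4.81 to 44.8) overlapped both Gja1 and Slc1a3. Gja1 (12.2 to 14.2) was above Slc1a3 (8.88 to 11.3) in every control by this length. Their longest transcripts have 3889 and 4435 bases, while all their annotated exons together cover 10257 and 8537 bases. The order of these genes in controls therefore depends on the length used. In fast-growing PNs the order was Apoe (566 ± 118), Fabp7 (102 ± 60.6), Glul (60.5 ± 15.7), Ptgds (14.6 ± 16.2), Slc1a3 (6.47 ± 1.03) and Gja1 (5.65 ± 1.21). Slc1a3 and Gja1 overlapped there (5.34 to 7.74 and 4.01 to 7.06), as did Fabp7 and Glul, and Ptgds (0.342 to 44.4) overlapped Fabp7, Slc1a3 and Gja1, so its rank is not set.

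Among the members, Glul, Gja1 and Slc1a3 varied together from mouse to mouse. Their deviations from group means over 14 libraries gave r of 0.77 for Glul with Slc1a3, 0.74 for Gja1 with Slc1a3 and 0.68 for Glul with Gja1. Fabp7 and Gja1 gave r of -0.53. The other 11 of the 15 pairs lay between -0.21 and 0.47. All values of a library share its depth, its scaling and its tissue makeup, so these r values are descriptions.

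**Figure D4:**
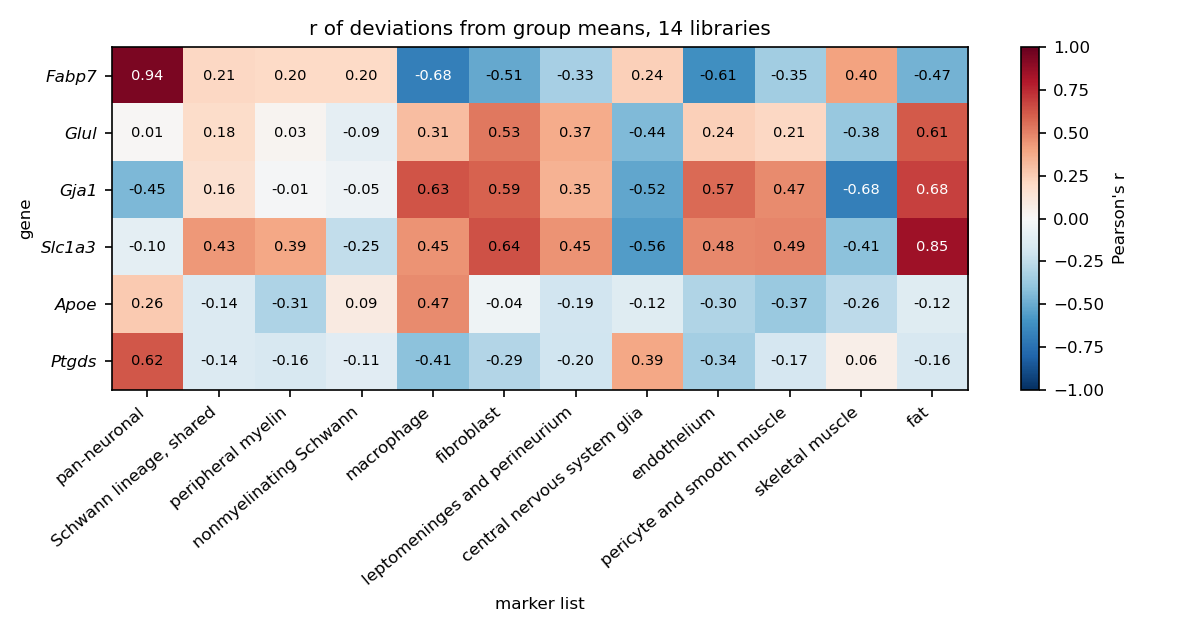
Pearson's r (color and number) between each gene (rows) and the summed level of each of 12 marker lists (columns), as deviations from group means of log2(CPM + 1) over 14 libraries. Fabp7 and Ptgds have their highest r with the pan-neuronal list, Glul, Gja1 and Slc1a3 with the fat list, and Apoe with the macrophage list.

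Of 72 such relations, the list with the highest r was the fat list for Slc1a3 (r = 0.85, rho 0.71), Gja1 (0.68, rho 0.72) and Glul (0.61, rho 0.64). Without the 2 libraries with the most deviating fat sum these became 0.60, 0.54 and 0.48. The genes most like each member over 14 libraries, among 11044 genes with a mean log2 level of at least 3, were the following. For Fabp7 they were Scrt1 (r = 0.988), a transcriptional repressor of neurons, and Nrsn1 (0.987), which encodes the neuronal protein neurensin. For Slc1a3 they were Pnpla2 (0.951), the triglyceride lipase of fat cells, which is in the fat list, and Ifi27l2a (0.946). For Glul they were S100a1 (0.899) and Arl4a (0.891), for Gja1 Rhoc (0.929) and Hsd3b7 (0.928), for Apoe Smarcd1 (0.843) and Rcc2 (0.839), and for Ptgds Deb1 (0.899) and Mapk1ip1 (0.834).

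The stretch before the transcription start is shown for the 3 genes called lower in fast-growing PNs and for Fabp7, which was not. Each is the 250 bases before the RefSeq start (GRCm38.p6), 5′ to 3′ on the gene's strand. The windows are chr10:56377050-56377299 (+) for Gja1, chr1:153899679-153899928 (+) for Glul, chr15:8710808-8711057 (-) for Slc1a3 and chr10:57784673-57784922 (+) for Fabp7. Capitals mark matches on either strand to the letters searched. These were CCAAT, bound by nuclear factor Y, and TATAAA, bound by the general machinery. They were also GGGCGG, bound by Sp1, and TGANTCA, bound by AP-1 factors. The last were ACAAAG, the core of SOX sites, and TGGGAA, the core of RBPJ sites. No matches overlapped in these 4 windows.
Gja1: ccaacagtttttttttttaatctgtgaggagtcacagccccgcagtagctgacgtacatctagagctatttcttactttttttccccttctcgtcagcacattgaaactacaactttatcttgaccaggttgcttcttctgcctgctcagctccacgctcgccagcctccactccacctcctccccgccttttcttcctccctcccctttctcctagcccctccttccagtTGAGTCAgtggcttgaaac
Glul: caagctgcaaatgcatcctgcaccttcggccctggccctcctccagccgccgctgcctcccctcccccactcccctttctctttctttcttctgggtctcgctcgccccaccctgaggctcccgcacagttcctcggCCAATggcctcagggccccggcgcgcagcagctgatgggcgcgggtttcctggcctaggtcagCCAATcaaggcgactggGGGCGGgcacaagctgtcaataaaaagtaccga
Slc1a3: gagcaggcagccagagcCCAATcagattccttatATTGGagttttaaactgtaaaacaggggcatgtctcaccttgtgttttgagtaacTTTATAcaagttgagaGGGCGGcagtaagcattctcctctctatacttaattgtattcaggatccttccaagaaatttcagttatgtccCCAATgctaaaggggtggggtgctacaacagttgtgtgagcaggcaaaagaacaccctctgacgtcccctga
Fabp7: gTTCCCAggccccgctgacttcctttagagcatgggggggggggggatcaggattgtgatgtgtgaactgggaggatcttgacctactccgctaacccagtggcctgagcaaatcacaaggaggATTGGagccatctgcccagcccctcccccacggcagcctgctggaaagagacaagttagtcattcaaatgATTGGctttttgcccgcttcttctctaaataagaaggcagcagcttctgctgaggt

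Gja1 held 1 match, to the AP-1 letters, which 6.75% of 32851 promoters of the same length hold. Glul held 2 matches for nuclear factor Y and 1 for Sp1, and Slc1a3 held 3 for nuclear factor Y, 1 for Sp1 and 1 for the general machinery. Fabp7 held 2 matches for nuclear factor Y and 1 for RBPJ. Of all promoters, 33.8% hold the letters for nuclear factor Y, 32.7% those for Sp1, 12.4% those for the general machinery, 21.6% those for RBPJ and 16.5% those for SOX. The 3 genes that were lower in fast-growing PNs had no motif of this search in common. A match to such short letters is a description of the window only. In the GENCODE annotation of the same assembly (GRCm38), Gja1 spans chr10:56377330-56402513 (+), Glul chr1:153899944-153909723 (+), Slc1a3 chr15:8634124-8710764 (-), Fabp7 chr10:57784881-57788450 (+), Apoe chr7:19696109-19699188 (-) and Ptgds chr2:25466709-25470046 (-), and all 6 are protein-coding genes.

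Of the 23 genes of the textbook satellite glia list, which includes the 6, 9 were called higher and 2 lower in PNs against controls (47.8% called, against 26.3% of all genes tested, median log2 fold change 0.19). Kcnj10, the inward rectifier potassium channel that clears potassium around neurons, was 28.3 ± 10.5 CPM in controls, 97.7 ± 68.4 in slow-growing and 290 ± 59.3 in fast-growing PNs. Its log2 fold change was 2.84 (SE 0.68, adjusted p = 0.00768) in PNs against controls. In slow-growing PNs against controls it was 1.74 (SE 0.53, adjusted p = 0.0694), short of the threshold. Every fast-growing PN was above every slow-growing PN (log2 fold change 1.57, SE 0.36, adjusted p = 0.0544), and 3.01% of all genes did not overlap between these groups. Ttyh1, which encodes a membrane protein of glia, was 4.04-fold higher in PNs and Cadm2, a cell adhesion gene, was 4.21-fold higher (adjusted p = 0.0011 and 0.00116). Sparcl1, a secreted matrix protein gene, was 1.96-fold higher (adjusted p = 0.00926). Ttyh1 was the 1 gene of this list called between fast-growing and slow-growing PNs (log2 fold change 0.82, SE 0.14, adjusted p = 0.0376), or 4.35% against 1.27% of all genes. In fast-growing PNs against controls, 9 of the 23 were higher and 4 lower (56.5% called, against 31.4% of all genes), and the 4 were Gja1, Glul, Slc1a3 and Slc4a4. In slow-growing PNs, 2 were higher (Ttyh1 and Cadm2) and 0 were lower, or 8.7% against 11.3% of all genes. Schwann cell genes were also called higher in PNs, 6 of 8 nonmyelinating and 4 of 10 shared lineage genes (75% and 40%, against 26.3%). Of 10 fibroblast genes, 0 were higher and 1 lower in PNs, and 7 were higher and 1 lower in fast-growing PNs (80%, against 31.4%). The part of these cells in the counts of the textbook list was not tested.

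The 50 markers of the satellite cell cluster were also called in both directions. In PNs against controls 19 were higher and 7 lower (52% called, against 26.3% of all genes, median log2 fold change 0.37). In fast-growing PNs 22 were higher and 11 lower (66% called, against 31.4%, median 0.19). In slow-growing PNs 5 were higher and 5 lower (20% called, against 11.3%, median 0.37). Between fast-growing and slow-growing PNs 2 were higher and 1 lower (6% called, against 1.27%). That list came from other libraries of the same model. Among the genes that were higher were Ncam1 (4.93-fold), a neural cell adhesion gene, and Gpm6b (3.45-fold). Ncam1 is also in the nonmyelinating Schwann cell list, whose summed level was higher in every PN than in every control, and the part of these cells in this count was not tested. The 7 lower markers in PNs were Hspa1a and Dnajb1, heat shock genes (7.85-fold and 2.74-fold), Fos and Cyr61, immediate early genes (3.24-fold and 3.58-fold), Id3, Ndrg2 and Dbi. Dbi, the acyl-CoA binding protein gene, had the lowest p of them, with a mean of 1151 ± 116 CPM in controls, 435 ± 173 in slow-growing and 491 ± 61.7 in fast-growing PNs.

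**Figure D5:**
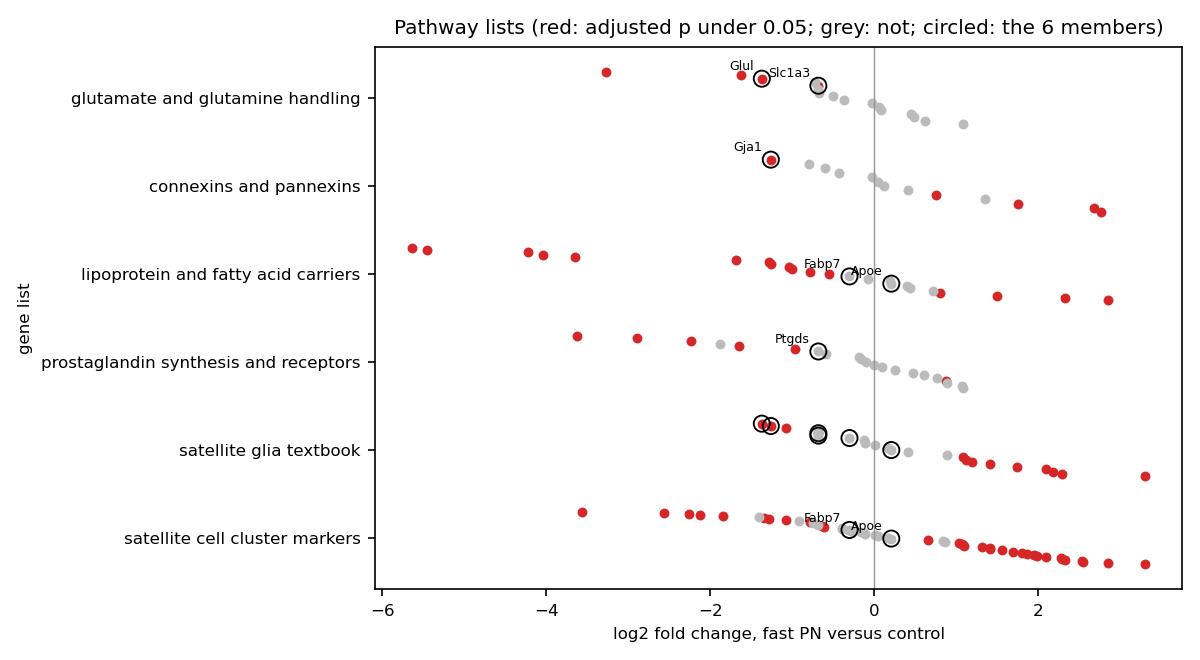
Log2 fold change in fast-growing PNs against controls (x axis) of each tested gene in 6 lists (rows), in red where the adjusted p was under 0.05 and circled for the 6 members. Glul, Gja1 and Slc1a3 lie on the low side of their lists, while the textbook and cluster marker lists extend to both sides.

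Of the glutamate and glutamine genes, 17 were tested in PNs against controls and 0 were higher and 1 lower (5.88%, against 26.3% of all genes). That gene was Slc38a3, a glutamine transporter, which was low at 6.75 ± 4.96 CPM in controls and 0.723 ± 0.669 in fast-growing PNs (log2 fold change -2.69, SE 0.77, adjusted p = 0.0199 in PNs). In fast-growing PNs 4 of 16 were lower (Slc1a5, Glul, Slc38a3 and Slc1a3) and 0 were higher (25% called, against 31.4% of all genes), and the median log2 fold change was -0.44. Slc1a2, the other main glial glutamate transporter, had 11.7 ± 2.28 CPM in controls, 21.8 ± 10.7 in slow-growing and 12.0 ± 5.28 in fast-growing PNs and was not called.

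Among connexins and pannexins, 12 genes were tested in PNs against controls and 2 were higher and 1 lower, a share of 25% close to the 26.3% of all genes. In fast-growing PNs 4 of 13 were higher and 1 lower (38.5%, against 31.4%), and Gjb2 (6.4-fold, adjusted p = 0.0118) was among the higher ones. Gjb2 was also the 1 gene of 12 called between fast-growing and slow-growing PNs (8.33%, against 1.27% of all genes), where it was higher in the fast-growing ones. Gja1 was the lower one. Gjc3, which encodes a connexin of myelinating glia, rose from 57.0 ± 20.7 CPM in controls to 248 ± 76.8 in the slow-growing and 401 ± 45.5 in the fast-growing tumors (5.81-fold in PNs, adjusted p = 0.000191). Gjb5 rose 2.83-fold from a low level of 1.58 ± 0.847 CPM (adjusted p = 0.0453). Gjb1, the connexin 32 gene of myelinating Schwann cells, had 11.4 ± 10.1, 26 ± 12.5 and 11.6 ± 3.64 CPM in controls, slow-growing and fast-growing PNs and was not called.

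Of 23 genes of lipoprotein and fatty acid carriage, 3 were higher and 6 lower in PNs (39.1% called, against 26.3% of all genes), and 4 were higher and 12 lower in fast-growing PNs (69.6%, against 31.4%). The 12 include Fabp4, Lpl and Cd36, genes of fat, and Fabp3 of muscle, in the comparison where all 13 genes of the fat list were lower. The lower genes with the lowest p were Vldlr, a lipoprotein receptor gene (2.12-fold, adjusted p = 0.000221), Fabp3, the heart and muscle fatty acid binding protein gene (10.2-fold, adjusted p = 0.000976), and Dbi (2.47-fold, adjusted p = 0.000998). Abca8a, a lipid transporter gene, was 4.2-fold higher (adjusted p = 0.00185). Apod, the apolipoprotein D gene, rose from 852 ± 507 CPM in controls to 6346 ± 1575 in fast-growing PNs (log2 fold change 2.86, SE 0.41, adjusted p = 0.000855). Fabp5 fell by 0.78 on the log2 scale in fast-growing PNs (adjusted p = 0.0495). Of the partners of Apoe, the receptor gene Lrp1 was 1.75-fold higher in fast-growing PNs (adjusted p = 0.0396), and the exporter gene Abca1 had 153 ± 26.8, 185 ± 57.7 and 262 ± 99.0 CPM in controls, slow-growing and fast-growing PNs without a call. The receptor gene Vldlr (2.4-fold) and the exporter gene Abcg1 (2-fold, adjusted p = 0.0208) were lower in fast-growing PNs, as was Apoc1, the apolipoprotein C1 gene.

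Of 21 prostaglandin genes tested, 0 were higher and 4 lower in PNs against controls (19% called, against 26.3% of all genes). In fast-growing PNs 1 was higher (Ptgfr) and 5 lower (28.6%, against 31.4%). Ptges2, a prostaglandin E synthase gene, fell from 28.0 ± 2.77 CPM in controls to 8.1 ± 2 and 6.18 ± 1.13 in slow-growing and fast-growing PNs (3.97-fold in PNs, adjusted p = 1.28e-05). The receptor gene Ptger1 was 2.02-fold lower (adjusted p = 0.00273), the prostacyclin synthase gene Ptgis 5.38-fold lower (adjusted p = 0.0118) and the receptor gene Ptger3 4.45-fold lower (adjusted p = 0.0467). Hpgds, the second gene that encodes a prostaglandin D synthase, had 9.33 ± 3.91, 8.13 ± 2.12 and 20.7 ± 8.21 CPM in controls, slow-growing and fast-growing PNs. It did not overlap between fast-growing and slow-growing PNs, which 3.01% of all genes did not, but its adjusted p was 0.0518 (log2 fold change 1.34, SE 0.30).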

How the data were processed

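Total RNA of frozen DRGs and PNs was amplified by the authors with the Ovation kit of NuGEN. Per the submitters' notes and the methods, the authors used CASAVA 1.4, FastQC 0.11.0, TopHat2 2.0.9 (mm10) and featureCounts 1.5.2. The deposited counts are whole reads per gene, not normalized, for 24062 genes and 14 libraries, and 0 columns were left without a sample. A table of log2 TMM values that the authors also deposited was not used here.

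Counts were fitted in R 4.3.3 with edgeR 4.0.16 (filterByExpr, TMM, quasi-likelihood test, only the libraries of a comparison), with Benjamini-Hochberg adjustment over all genes tested and a threshold of 0.05. Alternatives used DESeq2 1.42.0 and limma 3.58.1, and the closing section gives their effect. The fits were tried on simulated counts in which 200 genes were shifted by 2 on the log2 scale. Of the calls in PNs against controls, 6.79% were false for edgeR and 28.6% for DESeq2. The shares were 5.43% and 29.8% in slow-growing PNs against controls, and 4.4% and 25.3% in fast-growing PNs against controls. Between the PN groups they were 3.03% and 19.1%. Shifted genes were recovered at 61% to 80% by edgeR and at 85% to 91% by DESeq2. A call by DESeq2 alone therefore carries less weight here. A standard error was calculated back from the log2 fold change and the F statistic of the test, whose dispersion is moderated across genes. It reflects the spread between mice, while the floor of 3 counts covers counting error only, since amplified reads are not independent molecules. Sex and preparation batch per library are not given in the sources used here, so preparation and tissue cannot be told apart between controls and PNs.

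The members and gene lists were chosen with earlier results of these data known. Named pathway genes were up to 4 per list with the lowest p among those called in PNs against controls, plus direct partners of the members, and some genes that this rule names are not reported here. Like genes were the 2 with the highest r of deviations of log2(CPM + 1). Adgre1 was read under its older symbol Emr1. Gene positions and lengths came from GENCODE, and promoter sequences from RefSeq.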

Additional observations from a re-analysis of the deposited data

Results flagged for a closer look

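Each of the 6 genes, and the neuronal and fat sums, was checked in the slow-growing and the fast-growing PNs for a library far from the rest of its group, which made 16 checks, and chance gives about 1 in 20. In 1 check a library stood apart. Apoe was 636 CPM in slow-growing PN 1198A, and the gap to the next library was 0.727 of the whole range of the 5 slow-growing PNs, above Dixon's critical value of 0.71. The summed macrophage level was 1319 CPM in the same library and at most 405 CPM in the other slow-growing PNs, and its part in the level of Apoe was not tested.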

How the results depend on the processing

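Of 192 values of single genes recomputed under another scaling, filter, tool, fit or covariate, 161 kept their direction and their side of the threshold. Of 252 recomputed without 1 library, 226 did. The call of Gja1 in PNs held in all 14 of the latter (adjusted p 0.0036 to 0.0415), and the calls of Gja1 and Glul in fast-growing PNs in all 9 (0.00106 to 0.00775 and 0.00125 to 0.0113). The cause of the changes below was not tested. No paired analysis was possible because the groups share no replicate numbers.

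With muscle and fat scores as covariates, the genes called were 511 in PNs against controls and 0 in each of the other 3 comparisons, with 0 members called in any. The fat sum did not overlap between PNs and controls, so the fits against controls could not separate group from fat. With these covariates the log2 fold change in PNs was 0.11 for Glul and 0.24 for Slc1a3. In slow-growing PNs it was -0.071 for Fabp7, 0.34 for Glul, 1.17 for Slc1a3 and 0.22 for Ptgds, in fast-growing PNs -0.85 for Apoe, and between fast-growing and slow-growing PNs 0.73 for Slc1a3. With all 14 libraries in 1 fit, members called were 2 in PNs (Glul also, adjusted p = 0.038), 1 in slow-growing PNs (Gja1, 0.0245) and 1 between fast-growing and slow-growing PNs (Apoe, 0.0446), Slc1a3 lost its call in fast-growing PNs (0.272), and 3280 and 423 genes were called in slow-growing PNs and between the PN groups. DESeq2 called 3529 genes and 1 member (Gja1, 0.033) in slow-growing PNs and 1570 genes and 2 members between the PN groups (Glul, 0.0121; Apoe, 0.00177). Between the PN groups 130 genes were called with RLE factors, 72 with upper-quartile factors and 34 by limma voom. With the length and GC trend removed, 1 member was called there (Apoe, 0.0438), Apoe was called higher in fast-growing PNs (0.64, adjusted p = 0.0452) and its log2 fold change in PNs was 0.34.

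Signs near 0 turned. Fabp7 in PNs was -0.019 with RLE factors and DESeq2, -0.03 with upper-quartile factors and -0.12 by limma voom, and 0.15 in fast-growing PNs with the length trend removed. Gja1 between the PN groups was -0.016 with RLE factors and DESeq2 and -0.017 with the trend removed, and Ptgds was -0.29 by limma voom. Other log2 fold changes moved far without turning. With the length and GC trend removed, Fabp7 went from 0.026 to 0.47 in PNs and from 0.26 to 0.73 in slow-growing PNs, Apoe from -0.71 to -0.26 in slow-growing PNs, and Ptgds from -0.70 to -0.15 in PNs, -0.87 to -0.30 in slow-growing PNs and -0.68 to -0.11 in fast-growing PNs. With the covariates, Fabp7 went to 0.48 in PNs and from -0.30 to -1.71 in fast-growing PNs, Apoe from -0.084 to -1.25 in PNs and Ptgds from -0.68 to -1.16 in fast-growing PNs (-1.10 by limma voom), and between the PN groups Glul went from -1.01 to -0.54 and Gja1 from 0.0048 to 0.52.

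Without 1 library, genes called ranged from 2061 to 4779 in PNs, 599 to 2454 in slow-growing PNs, 3342 to 5247 in fast-growing PNs and 2 to 1194 between the PN groups, where members called ranged from 0 to 1. The lowest of the first 3 counts came without DRG5 and the highest of the last without 1198A. Log2 fold changes ranged in PNs from -0.31 to 0.61 for Fabp7, -0.20 to 0.18 for Apoe and -1.17 to 0.33 for Ptgds. In slow-growing PNs they ranged from -0.079 to 0.82 for Fabp7, -0.39 to 0.076 for Slc1a3 and -1.34 to 0.16 for Ptgds. In fast-growing PNs they ranged from -0.59 to 0.25 for Fabp7 and -1.41 to 0.42 for Ptgds. Between the PN groups they ranged from -0.17 to 0.22 for Gja1 and -0.49 to 0.67 for Ptgds. Depth limits Ptgds in library 1191 (6 counts).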
